A study of Mus musculus with 24 samples.

Results

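Open chromatin was examined in mouse macrophages at the peaks nearest to 8 genes of the transforming growth factor beta (TGF beta) pathway: Tgfb1, Tgfbr1, Tgfbr2, Smad2, Smad3, Smad7, Ldlrad4 and Skil. A peak was counted for a gene when the authors' deposited table named that gene as nearest, or, where the table had no row for the peak, when the nearest transcription start site (TSS) listed there was the gene's and lay within 50 kb of the middle of the peak. The rule found 161 of 144411 peaks, 107 through the authors' deposited table and 54 by the nearest listed TSS. Proximity alone does not tell which gene a peak acts on. The 50 kb limit fell between a Smad7 peak at 48.17 kb, with 1.31 to 2.01 CPM (counts scaled to the size of the library) in wild-type vehicle libraries, and a peak left out at 52.1 kb, with 0.618 to 0.894. The members were chosen by gene name and position, and the genes were selected on measured counts, with differences between the genotypes at Tgfbr2 and Ldlrad4 in view, so those differences are given as a description with no test.

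The assay was ATAC-seq, which uses a transposase to insert sequencing adapters where DNA is accessible. It was applied to macrophages grown for 5 days from the bone marrow of male C57BL/6 mice of 8 to 10 weeks. LysM-Cre+/+, which drives the Cre recombinase in myeloid cells, was present in both genotypes, together with GRIP1wt/wt (wild type, WT) or GRIP1fl/fl (knockout, KO). GRIP1 is a coactivator of nuclear receptors and is the product of Ncoa2. The treatments in each genotype were vehicle, dexamethasone (Dex, a glucocorticoid drug) at 100 nM, and interleukin 4 (IL4, a T cell cytokine) at 10 ng/ml. The titles give 24 hours for all groups, and the treatment label of the vehicle libraries gives 25 hours. Each of the 6 groups held 4 libraries, and the sources used here do not say whether they came from separate mice, so a p-value reflects spread among these libraries, which may be technical.

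TGF beta is a secreted cytokine that binds the type II receptor kinase, encoded by Tgfbr2, which then activates the type I receptor, encoded by Tgfbr1. The type I receptor phosphorylates the transcription factors encoded by Smad2 and Smad3, which enter the nucleus and act with Smad4. Smad7 and Ldlrad4 encode inhibitors that act on the receptors or on access of the SMADs to them, and Skil encodes SnoN, a nuclear repressor of SMAD transcription. In macrophages the pathway is known for restraining inflammatory genes and for tissue repair.

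The promoters of Smad3, Tgfb1, Tgfbr1 and Tgfbr2 are shown because the peaks over them were called lower after IL4 in WT cells, at Tgfbr2 a call that other settings lost, and because they are the member promoters with an entry in the RefSeq promoter table (4 of 8 genes). Each window runs from 250 bases before to 50 bases after the start, 5′ to 3′ on the strand of the gene, in GRCm38.p6 (the mm10 build), with every CG pair in capitals. The Smad3 window is chr9:63757945-63758244 on the minus strand, the Tgfb1 window chr7:25686752-25687051 on the plus strand, the Tgfbr1 window chr4:47352972-47353271 on the plus strand, and the Tgfbr2 window chr9:116175314-116175613 on the minus strand.
Smad3: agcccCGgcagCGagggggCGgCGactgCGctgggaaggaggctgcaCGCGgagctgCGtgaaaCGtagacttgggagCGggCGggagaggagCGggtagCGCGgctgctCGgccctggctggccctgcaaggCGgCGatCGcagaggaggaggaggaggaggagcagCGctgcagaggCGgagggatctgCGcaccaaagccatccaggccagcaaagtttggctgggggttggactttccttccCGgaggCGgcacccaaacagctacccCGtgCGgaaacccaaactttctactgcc
Tgfb1: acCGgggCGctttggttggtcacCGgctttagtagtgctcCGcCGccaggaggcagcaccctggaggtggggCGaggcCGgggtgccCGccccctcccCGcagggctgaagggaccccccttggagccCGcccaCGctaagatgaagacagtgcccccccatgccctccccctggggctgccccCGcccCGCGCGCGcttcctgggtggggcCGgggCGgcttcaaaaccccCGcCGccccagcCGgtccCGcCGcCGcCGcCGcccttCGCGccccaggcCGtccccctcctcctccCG
Tgfbr1: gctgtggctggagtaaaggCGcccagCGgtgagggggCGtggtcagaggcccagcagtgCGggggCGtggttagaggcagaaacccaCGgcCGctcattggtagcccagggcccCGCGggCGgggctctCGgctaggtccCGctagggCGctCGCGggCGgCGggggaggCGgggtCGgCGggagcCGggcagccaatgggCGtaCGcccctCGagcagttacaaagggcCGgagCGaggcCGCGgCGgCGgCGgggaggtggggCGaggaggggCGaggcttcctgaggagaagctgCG
Tgfbr2: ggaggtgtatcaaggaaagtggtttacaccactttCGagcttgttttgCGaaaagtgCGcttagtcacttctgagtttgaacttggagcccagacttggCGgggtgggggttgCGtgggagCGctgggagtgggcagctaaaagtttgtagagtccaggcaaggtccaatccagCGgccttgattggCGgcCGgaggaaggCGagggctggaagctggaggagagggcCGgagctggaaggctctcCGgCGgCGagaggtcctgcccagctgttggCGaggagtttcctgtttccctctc
These windows hold 25, 30, 34 and 15 CG pairs in the order shown, against a median of 7 over the 32851 promoters of the table. Their GC contents are 67.7%, 77.0%, 74.7% and 59.0%, against a median of 52.7%. The peaks cover all 300 bases of the Smad3, Tgfbr1 and Tgfbr2 windows and 291 of those of Tgfb1. On either strand, none of the 4 windows holds the glucocorticoid receptor palindrome AGAACA, any 3 bases, TGTTCT (in 0.00913% of all promoters in the table) or either arm of it alone, AGAACA or TGTTCT (19.0%). The same holds for the STAT6 motif TTC, any 4 bases, GAA (6.95%), for the SMAD motifs GTCTAGAC (0.213%) and CAGACA (21.0%), for the AP-1 motif TGANTCA (7.81%) and for the PU.1 motif GAGGAAGT (3.20%). A second listed start of Tgfbr1, chr4:47385966-47386265, has 3 CG pairs, a GC content of 52.0%, a CAGACA motif at base 48 and no peak.

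Total counts in peaks ran from 5820149 in WT Dex replicate 2, which stood apart on a principal component and had 2.57% of all peaks at 0, to 21939330, and tested peaks had a median of 33 counts per library. Levels are CPM scaled by TMM (trimmed mean of M-values), and a peak is called higher or lower at an adjusted p under 0.05 in edgeR's quasi-likelihood F test, adjusted by Benjamini-Hochberg over all 130103 tested peaks. Among 21 tested peaks assigned to Ncoa2, the gene of GRIP1, the lowest KO against WT value was at the same peak under all 3 treatments, with a log2 difference of −1.15 ± 0.16 (SE) under vehicle and adjusted p = 1.0e-07. The sources used here do not say whether that peak lies in the deleted part of the gene. All 10 macrophage markers had a promoter peak, with a summed level of 343 to 443 CPM, and in WT cells the Dex libraries (402 to 443) lay above the vehicle libraries (352 to 369). Of 8 T and NK cell markers, 1 had a promoter peak, at 18.03 to 26.1 CPM in IL4 libraries and at most 13.6 in others; Cd3e, Cd3d and Cd3g had none. Of 7 fibroblast and stroma markers, 1 had a promoter peak, at 4.93 to 7.08 CPM in IL4 libraries and 2.46 to 4.45 in others, and Col1a1 and Pdgfra had none. Of 8 neutrophil markers, 5 had one, with a sum of 27.4 to 52.7 CPM over all libraries. Of 6 erythroid and megakaryocyte markers, 2 had one, with a sum of 32.3 to 37.4 CPM in IL4 libraries and 21.3 to 25.5 in others, and Klf1, Gata1 and Pf4 had none. The sums of the B cell, dendritic cell and mast cell lists overlapped between IL4 and other libraries. The part of other cells in the IL4 values below was not tested. In bulk libraries, fewer cells with an open site and less opening per cell cannot be told apart.

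Of the 161 peaks, 155 passed the filter on low counts. The 6 that did not lie near Tgfbr1 (2), Tgfbr2 (2), Smad3 (1) and Smad7 (1). Tgfbr2 had 45 tested peaks, Ldlrad4 28, Tgfbr1 26, Smad3 23, Smad7 13, Smad2 11, Skil 7 and Tgfb1 2. Of the 161 peaks, 87 lay inside the gene, 67 between genes and 7 inside another gene. A FANTOM enhancer, as the authors' deposited table marks it, overlapped 21 of the 107 peaks with a row there (19.6%), against 13.8% of all peaks in that table. Distal peaks are named by their signed distance in kb from the nearest listed TSS, negative upstream along the gene. Tgfbr1, Smad2 and Ldlrad4 have more than 1 listed TSS, so a negative distance can lie inside the gene. A promoter peak is one within 1 kb of a TSS.

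Per kb of peak, the promoters differed in openness in WT vehicle libraries. The order was Tgfbr1 (84.5 CPM per kb), Skil (67.4), Smad2 (59.8), Smad3 (53.5), Tgfb1 (50.8), Smad7 (43.9), Tgfbr2 (21.3), Ldlrad4 (10.4) and the inner Ldlrad4 start (3.75). The ranges of the 4 libraries overlapped between Skil (61.2 to 73.0) and Smad2 (55.8 to 61.5), between Smad2 and Smad3 (51.7 to 56.8) and between Smad3 and Tgfb1 (49.3 to 52.5), and the other neighbours in this order lay apart.

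Of the 9 promoter peaks, 7 were called lower with IL4 in WT cells and none higher, and 5 of the 7 kept the call without any single library and with DESeq2. Of all 13871 tested peaks within 1 kb of a TSS, 49.3% were called, 43.0% lower and 6.29% higher, and their median log2 change was −0.21. The Smad3 promoter had the largest fall, from 58.5, 62.1, 56.6 and 57.1 CPM in WT vehicle to 39.2, 35.6, 33.5 and 34.3 in WT IL4. All IL4 libraries lay below all vehicle libraries, a log2 change of −0.71 ± 0.07 (SE) with adjusted p = 2.4e-15 in edgeR's quasi-likelihood test. In KO cells the Smad3 promoter went from 54.3, 58.3, 58.6 and 61.8 CPM to 33.1, 36.2, 37.3 and 37.5, again without overlap (−0.69 ± 0.07). The Skil promoter stood at 174, 172, 186 and 156 CPM in WT vehicle and 125, 117, 111 and 118 in WT IL4. It fell by 0.54 ± 0.07 on the log2 scale (edgeR, adjusted p = 9.7e-11), and its ranges did not overlap.

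The ligand promoter, Tgfb1, held 36.9, 37.9, 38.3 and 39.4 CPM in WT vehicle, 43.7, 41.7, 42.5 and 36.9 in WT Dex, and 28.5, 29.1, 26.8 and 31.5 in WT IL4. The IL4 libraries were the lowest in every case, at −0.39 ± 0.07 (edgeR, adjusted p = 6.6e-06), while the Dex and vehicle libraries overlapped. Further into the gene, the Tgfb1 +2.3 kb peak also fell under IL4, from 81.9, 75.0, 89.5 and 77.2 CPM to 69.7, 62.5, 65.1 and 61.8 (log2 −0.32 ± 0.07). The Tgfbr1 promoter went from 81.5, 85.8, 85.3 and 83.5 CPM to 64.6, 64.1, 69.6 and 63.8 under IL4 in WT cells (−0.36 ± 0.07), with no overlap. At the Smad7 promoter the values were 63.0, 60.02, 66.3 and 61.2 CPM in vehicle and 49.7, 52.6, 46.5 and 47.4 in IL4 (−0.35 ± 0.06), also apart. The 2 smaller falls were at Smad2 (−0.19 ± 0.06, edgeR adjusted p = 0.015), where all vehicle libraries lay above all IL4 libraries, and at Tgfbr2 (−0.21 ± 0.08, adjusted p = 0.031), where 1 vehicle library lay below all IL4 libraries. The Smad2 call was lost with scaling by total counts (adjusted p = 0.058) and without WT IL4 replicate 3 (0.133). The Tgfbr2 call was lost with total counts (0.104), with DESeq2 (0.055), and without WT vehicle replicate 1, 2 or 4 or WT IL4 replicate 2, 3 or 4 (edgeR, adjusted p = 0.080 to 0.134). In KO cells neither of these 2 falls was called in the reported fit. The Smad2 change there was −0.10 ± 0.06 (edgeR, adjusted p = 0.226). The Tgfbr2 fall in KO cells was called in some alternatives, such as a replicate block within genotype (−0.18, edgeR adjusted p = 0.022).

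When libraries were scaled with offsets that follow the level of the peak, the promoter falls of Tgfb1, Smad3 and Skil kept their calls, those of Tgfbr1 (−0.09), Tgfbr2 (−0.05) and Smad7 (−0.11) lost them, and Smad2 changed sign (0.09). With these offsets the Skil promoter was also called lower with Dex, which the reported fit did not call. Its change was −0.17 in WT (edgeR, adjusted p = 0.0005) and −0.20 in KO cells (9.8e-05). The IL4 against Dex difference in WT cells lost its call at the Skil (−0.03) and Tgfbr1 (−0.02) promoters.

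**Figure D1:**
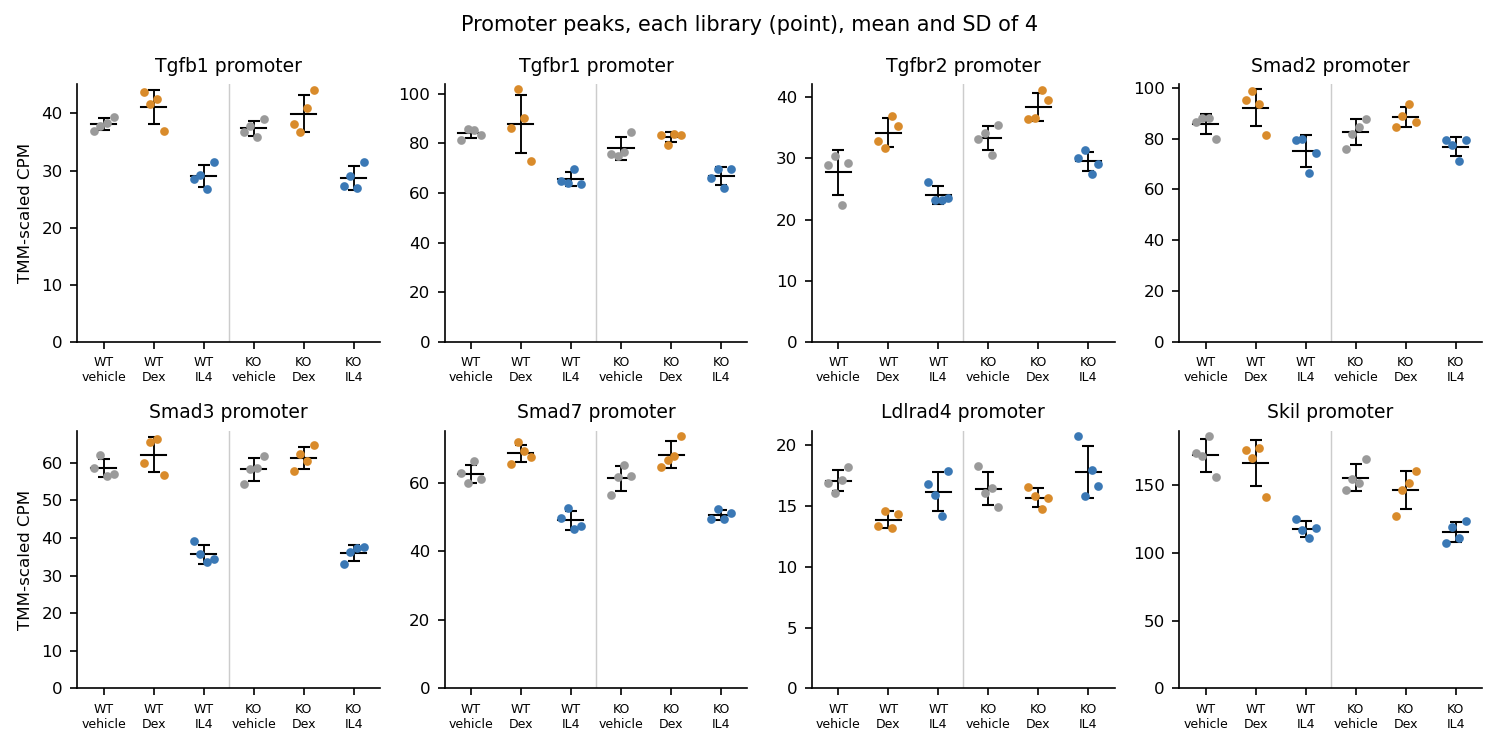
Promoter peaks of the 8 genes, 1 panel each. The vertical axis is TMM-scaled CPM from 0, points are the 4 libraries of each of the 6 groups, and bars are the mean and SD. In the Smad3 panel the WT IL4 libraries lie between 33.5 and 39.2 CPM, below all vehicle and Dex libraries; Ldlrad4 shows no such step.

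Over all 155 tested peaks, IL4 in WT cells raised 35 and lowered 37, which is 46.45% of them against 35.4% of all tested peaks (19.3% higher and 16.1% lower). Their median log2 change was −0.00, against −0.01 for all tested peaks. The directions differed by gene. Around the receptors more peaks rose than fell in WT cells: 9 against 2 of 26 at Tgfbr1 and 10 against 4 of 45 at Tgfbr2, where the 31.1% called is below the share of all tested peaks. In KO cells the counts were 8 against 2 at Tgfbr1 and 6 against 5 at Tgfbr2. Around Smad3 the reverse held, with 5 higher and 14 lower of 23 and a median of −0.42, and Smad7 (5 of 13) and Skil (4 of 7) had only lower calls. Ldlrad4 had 8 higher and 4 lower of 28, Smad2 3 and 2 of 11, and Tgfb1 2 lower of 2.

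**Figure D2:**
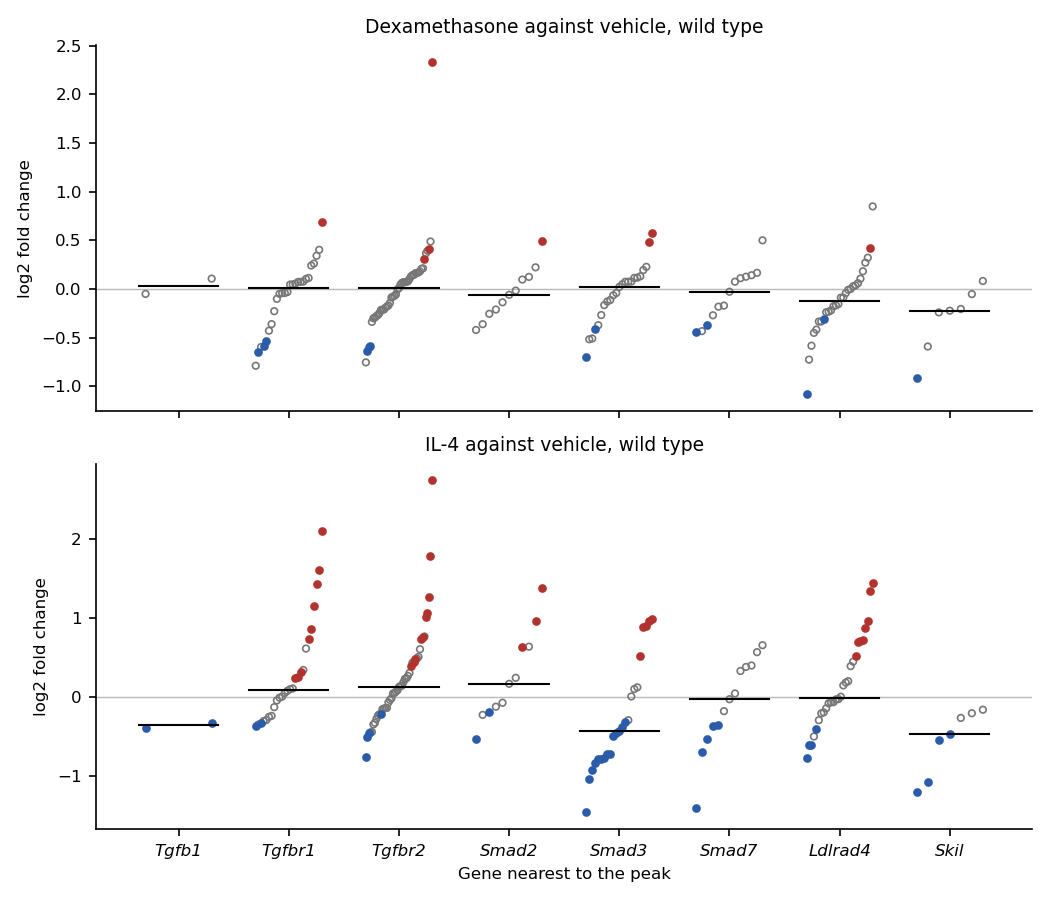
Log2 fold change of each tested peak (155 points per panel) by gene, for Dex (top) and IL4 (bottom) against vehicle in WT cells. Filled red and blue points were called higher and lower, open points were not called, and the black line is the median of the gene. Under IL4 the called points of Smad7 and Skil are all below 0, and those of Tgfbr1 and Tgfbr2 are mostly above it.

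The largest rise of any of these peaks under IL4 was inside the receptor gene Tgfbr2, at +22.3 kb (chr9:116152847-116153367). It held 1.61, 1.23, 1.07 and 1.24 CPM in WT vehicle and 9.75, 9.07, 9.28 and 7.36 in WT IL4, so that the IL4 libraries stood far above the rest (log2 2.75 ± 0.19, edgeR adjusted p = 4.3e-23). In KO cells the same peak went from 3.85, 2.48, 3.27 and 2.75 CPM to 13.3, 13.5, 12.1 and 14.2, a log2 change of 2.15 ± 0.15. With Dex it held 1.55, 1.48, 0.656 and 1.07 CPM in WT cells, overlapping vehicle. Over the 24 libraries its level ran most closely with peaks assigned to Kif26b (Pearson r = 0.979), Plekhg1 (0.969) and Vwf (0.969), a description over libraries that share treatments. A second Tgfbr2 peak, at −139.4 kb between genes, rose from 0.999, 1.34, 0.641 and 0.824 CPM to 3.22, 3.10, 4.38 and 2.70 in WT cells. Those groups did not overlap either (log2 1.79 ± 0.25).

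Inside Tgfbr1, the type I receptor gene, 2 peaks near its inner start rose. The −9.6 kb peak went from 0.614, 0.447, 0.961 and 0.721 CPM in WT vehicle to 2.48, 3.10, 3.16 and 3.17 in WT IL4, and its Dex libraries, at 0.185 to 0.933, overlapped vehicle. Its IL4 change was 2.11 ± 0.28 on the log2 scale (edgeR, adjusted p = 1.5e-09). The +16.0 kb peak (chr4:47401891-47402515) held 3.76, 2.35, 2.35 and 1.958 CPM in WT vehicle, 4.43, 3.14, 4.35 and 4.67 in WT Dex, and 9.34, 7.26, 7.85 and 8.66 in WT IL4. All IL4 libraries were above all others in WT cells (log2 1.61 ± 0.16), and the Dex libraries overlapped vehicle although the Dex change was also called (0.69 ± 0.18, edgeR adjusted p = 0.003). In KO cells the changes at +16.0 kb were 1.502 ± 0.16 with IL4 and 0.63 ± 0.17 with Dex.

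Of the SMADs that the receptor activates, Smad2 had 3 higher and 2 lower calls under IL4. Its peak with the smallest p, at −25.7 kb, rose under IL4 in WT cells from 1.77, 2.12, 2.14 and 2.27 CPM to 3.47, 3.86, 5.61 and 3.35, with no overlap (log2 0.97 ± 0.20, edgeR adjusted p = 4.2e-05). In KO cells its log2 change was 0.50 ± 0.21 and was not called (adjusted p = 0.063). Closer in, the Smad2 −4.1 kb peak held 5.76, 6.37, 5.23 and 5.26 CPM in WT vehicle, 7.67, 10.2, 6.65 and 8.26 in WT Dex and 9.01, 8.49, 8.87 and 8.75 in WT IL4. Both treatments lay above vehicle in every library (0.49 ± 0.14 and 0.63 ± 0.13). In KO cells neither change at −4.1 kb was called (0.18 ± 0.13 and 0.11 ± 0.13), and the differences between the genotypes were not called either. The remaining rise, at −2.7 kb, was at a low peak, with 0.384 to 0.641 CPM in WT vehicle. It was called with IL4 in both genotypes, at 1.38 ± 0.36 in WT and 1.47 ± 0.34 in KO cells. The fall at −13.6 kb was also called in both, at −0.53 ± 0.16 in each.

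Smad3 lost accessibility along most of the gene under IL4. Inside the gene, 10 of 13 tested peaks were lower and 2 higher in WT cells, and 10 lower and 1 higher in KO cells. Outside it, counting the promoter, 4 of 10 were lower in both genotypes, and 3 were higher in WT and 1 in KO cells. The +51.6 kb peak, with the largest fall inside the gene, held 54.5, 52.0, 52.4 and 43.6 CPM in WT vehicle and 29.8, 23.8, 23.1 and 22.2 in WT IL4. The groups lay apart (log2 −1.03 ± 0.13, edgeR adjusted p = 1.9e-06). In KO cells it went from 43.4, 48.8, 40.8 and 50.5 CPM to 19.7, 22.3, 22.5 and 24.8, also apart (−1.05 ± 0.13). With Dex in WT cells the +51.6 kb peak held 51.3, 31.8, 34.8 and 33.0 CPM, of which replicate 1 lay in the vehicle range and the other 3 below it (−0.41 ± 0.13, edgeR adjusted p = 0.028).

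**Figure D3:**
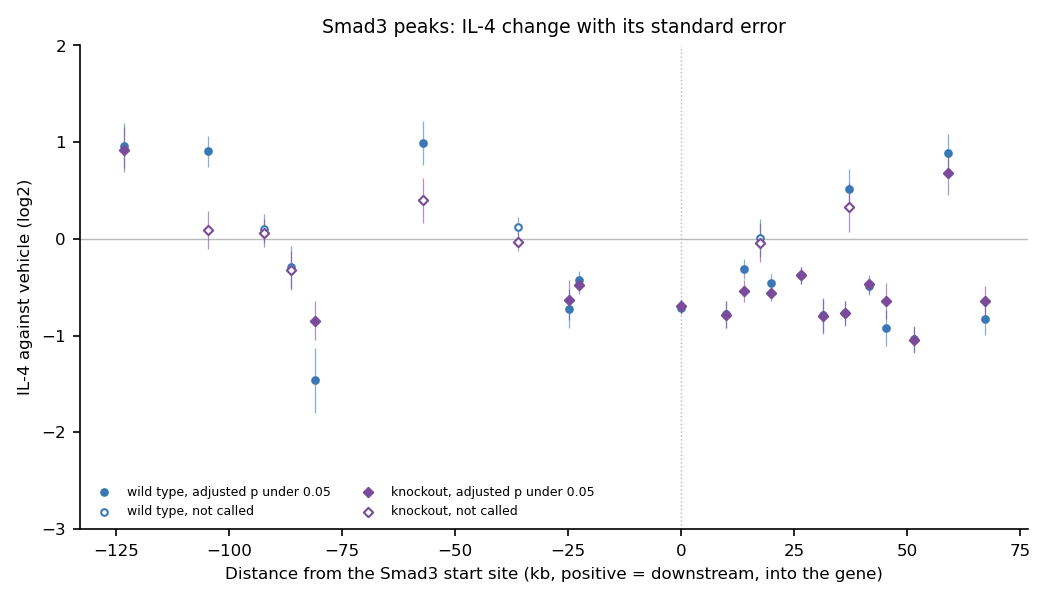
IL4 against vehicle (log2, with its SE) at the 23 tested Smad3 peaks, by distance from the start site in kb, in WT (circles) and KO cells (diamonds). Filled symbols were called, and the dotted line is the start. From the start to +51.6 kb the called points lie below 0 except the +37.1 kb peak of WT cells, and the 3 WT rises outside the gene are 57.1 kb or more upstream.

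Among the inhibitors, Smad7 had its largest change at +20.2 kb inside the gene (chr18:75387305-75387896). The peak held 14.6, 13.9, 12.9 and 12.1 CPM in WT vehicle, 9.22, 11.6, 8.94 and 10.3 in WT Dex and 4.55, 4.74, 6.12 and 5.12 in WT IL4. The 3 groups did not overlap, with vehicle highest and IL4 lowest: the change was −0.44 ± 0.11 with Dex (edgeR, adjusted p = 0.0015) and −1.40 ± 0.12 with IL4 (adjusted p = 2.3e-17). In KO cells the order was the same, at 13.8, 15.3, 12.7 and 13.1 CPM with vehicle, 11.04, 10.9, 12.0 and 9.95 with Dex and 7.002, 5.52, 6.64 and 6.65 with IL4. Its level ran most closely with peaks assigned to Col4a1 (r = 0.955) and Egr1 (0.947) over the 24 libraries. Other Smad7 peaks called lower under IL4 in WT cells lay upstream, at −24.7, −13.7 and −3.7 kb and at the promoter.

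Skil had its largest falls on either side of its promoter. The +6.0 kb peak inside the gene held 8.22, 8.05, 7.37 and 4.95 CPM in WT vehicle, 5.07, 3.14, 3.04 and 3.64 in WT Dex and 3.14, 3.63, 2.75 and 2.70 in WT IL4. One Dex library reached above the lowest vehicle library, and all IL4 libraries were below vehicle. The log2 changes were −0.91 ± 0.16 with Dex (edgeR, adjusted p = 5.1e-06) and −1.20 ± 0.16 with IL4 (adjusted p = 2.6e-09), and in KO cells −0.88 ± 0.17 and −0.66 ± 0.17. Upstream, the Skil −4.9 kb peak fell under IL4 in WT cells from 10.3, 8.49, 9.50 and 7.83 CPM to 4.55, 4.57, 4.89 and 3.17 (−1.07 ± 0.15), without overlap, and by the same −1.07 ± 0.15 in KO cells.

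Ldlrad4, whose product limits SMAD access to the receptor, had a promoter change of −0.08 ± 0.09 under IL4, which was not called. Of 27 tested peaks inside the gene, 8 rose and 4 fell in WT cells, and 4 rose and 4 fell in KO cells. The +12.7 kb peak held 4.69, 4.36, 5.13 and 5.67 CPM in WT vehicle, 6.83, 4.98, 6.56 and 5.88 in WT Dex, and 11.9, 11.9, 14.9 and 11.9 in WT IL4. All IL4 libraries were above the others (log2 1.34 ± 0.14, edgeR adjusted p = 6.6e-14). The KO change at +12.7 kb was 1.21 ± 0.14. The +5.6 kb peak was low, at 0.461 to 1.07 CPM in WT vehicle and 1.40 to 2.28 in WT IL4 (1.44 ± 0.33).

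IL4 and Dex, compared directly in WT cells, differed at 86 of the 155 peaks: 47 were higher with IL4 and 39 lower, or 55.5% of them, against 45.1% of all tested peaks (23.4% higher and 21.7% lower). The separate changes against vehicle share the vehicle libraries.

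Dex in WT cells gave fewer calls than IL4. Of the peaks 8 rose and 13 fell, 13.55% of the 155 against 16.6% of all tested peaks (8.56% higher and 8.08% lower), so their share was below that of all peaks. By gene the calls higher and lower were 1 and 3 at Tgfbr1, 3 and 3 at Tgfbr2, 1 and 0 at Smad2, 2 and 2 at Smad3, 0 and 2 at Smad7, 1 and 2 at Ldlrad4 and 0 and 1 at Skil, with none at Tgfb1. Without WT Dex replicate 2, the shallowest library, 9 rose and 9 fell. Without WT Dex replicate 3, 7 fell.

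The strongest Dex response was at Tgfbr2, 177.8 kb upstream between genes (chr9:116352940-116353475). That peak held 0.461, 0.671, 0.961 and 0.928 CPM in WT vehicle, 4.08, 3.32, 3.61 and 3.69 in WT Dex and 0.909, 0.468, 0.918 and 0.466 in WT IL4. The Dex libraries were all above the others, and IL4 overlapped vehicle (Dex log2 2.33 ± 0.26, edgeR adjusted p = 7.9e-12). In KO cells it went from 0.870, 1.14, 1.70 and 1.19 CPM to 3.28, 2.89, 4.88 and 4.26 with Dex, again apart (1.67 ± 0.23, adjusted p = 2.0e-08). The Tgfbr2 promoter rose with Dex in WT cells, from 29.0, 30.4, 22.3 and 29.3 CPM to 32.9, 31.8, 36.9 and 35.3 (0.31 ± 0.08, edgeR adjusted p = 0.0018), and all Dex libraries lay above vehicle. In KO cells its change was 0.20 ± 0.07 and was not called (adjusted p = 0.055), but it was called with the replicate number as a block (0.045, or 0.013 with numbers kept within genotype), without KO vehicle replicate 4 (0.045) and without KO Dex replicate 1 (0.033). The difference between the genotypes there was not tested.

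The largest Dex fall was inside Ldlrad4 at −131.3 kb from its inner start (chr18:68096316-68097101). The level was 14.9, 12.9, 12.3 and 11.3 CPM in WT vehicle, 7.60, 5.72, 5.17 and 5.74 in WT Dex and 13.5, 13.9, 12.3 and 12.0 in WT IL4. Dex alone stood below the other 2 groups (log2 −1.08 ± 0.12, edgeR adjusted p = 8.5e-12). In KO cells the fall was from 13.1, 14.1, 13.7 and 17.1 CPM to 8.06, 6.81, 6.92 and 7.46 (−1.0004 ± 0.11), also without overlap. The Ldlrad4 promoter fell with Dex in WT cells from 16.9, 16.1, 17.2 and 18.2 CPM to 13.4, 14.6, 13.2 and 14.4 (−0.31 ± 0.09, edgeR adjusted p = 0.015), a call lost without WT vehicle replicate 4 (0.060) or WT Dex replicate 3 (0.0504). In KO cells its change was −0.06 ± 0.09, not called, and the difference between the genotypes was not tested.

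At Tgfbr1, the −7.4 kb peak fell with Dex from 8.37, 8.83, 8.44 and 7.94 CPM to 5.77, 4.25, 5.33 and 5.46 in WT cells (−0.65 ± 0.13, edgeR adjusted p = 9.8e-05). All Dex libraries were below vehicle, and the IL4 change there was −0.33 ± 0.13. Other Dex calls were less firm. The Tgfbr2 −68.6 kb peak (−0.64 ± 0.23, edgeR adjusted p = 0.038) and the Smad3 +37.1 kb peak (0.58 ± 0.20, adjusted p = 0.029) each lost the call in 6 of the alternatives. The Smad3 peaks at +17.5 kb (−0.70 ± 0.22) and −92.4 kb (0.49 ± 0.14) lost it without WT vehicle replicate 4 or WT Dex replicate 1.

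**Figure D4:**
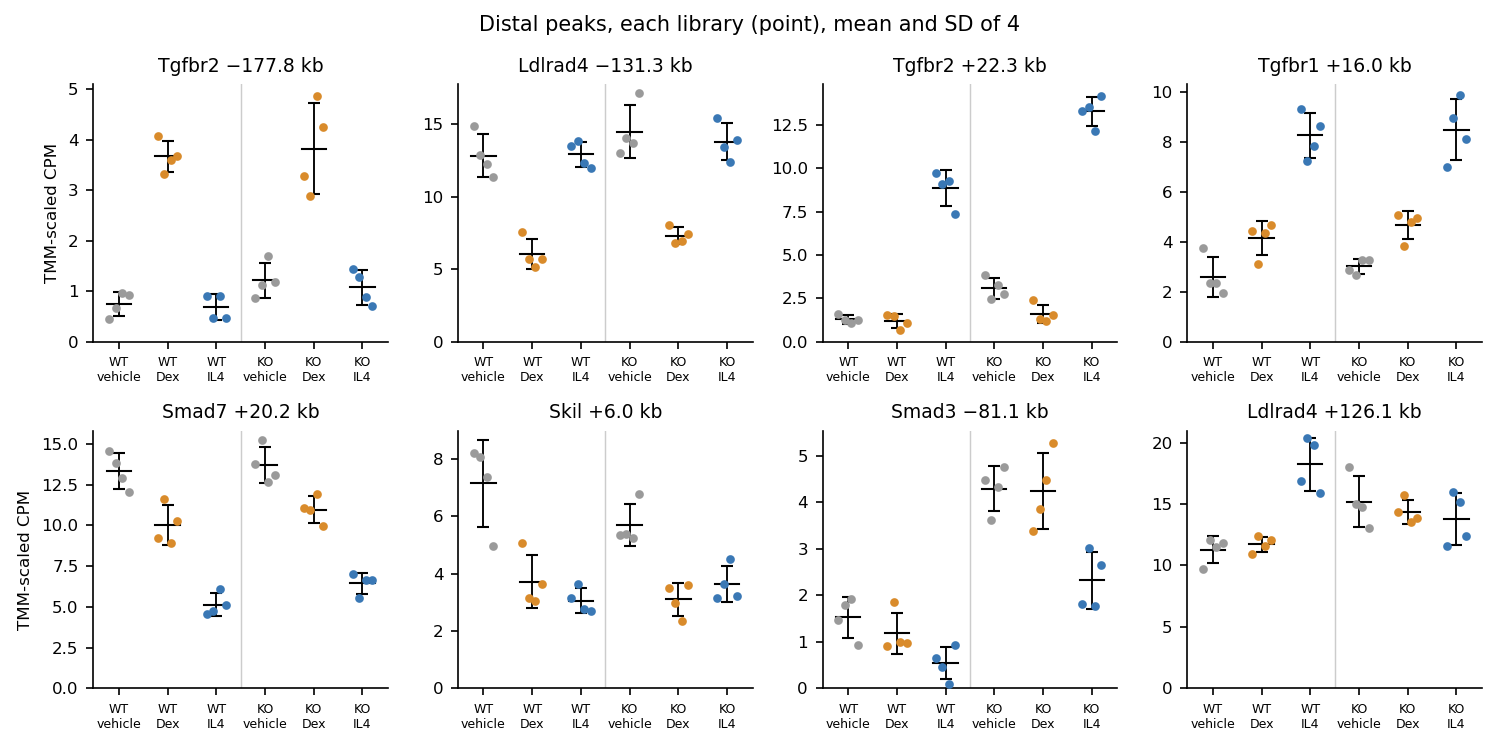
Distal peaks in each library, as TMM-scaled CPM from 0, with the mean and SD of the 4 libraries of each group. Tgfbr2 −177.8 kb stands at 3.32 to 4.08 CPM in WT Dex and below 1 CPM in WT vehicle and IL4, Smad7 +20.2 kb steps down from vehicle to Dex to IL4, and Smad3 −81.1 kb is higher in KO than in WT groups.

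The same treatments were then read in KO cells, whose libraries are separate from those of WT cells. With IL4, 22 rose and 39 fell in KO cells (39.35%, against 31.0% of all tested peaks, of which 17.0% higher and 13.9% lower), and 34 of the falls were called in both genotypes, which is 91.9% of the WT and 87.2% of the KO falls. Of the rises 19 were called in both, 54.3% of the 35 WT and 86.4% of the 22 KO rises. For all tested peaks the corresponding shares were 64.2% and 74.3% for falls and 74.0% and 83.9% for rises. Of the 35 peaks that rose in WT cells, 34 had the same sign in KO cells (97.1%, against 98.3% of all tested peaks that rose). With Dex, 6 rose and 10 fell in KO cells (10.32%, against 13.6% of all tested peaks, of which 6.97% higher and 6.63% lower), and 5 rises and 7 falls were called in both genotypes. These are 62.5% of the WT rises and 53.8% of the WT falls, near the 58.1% and 53.2% of all tested peaks. The genotypes' treatment effects were compared by an interaction term over the 82 tested peaks outside Tgfbr2 and Ldlrad4. None was called for Dex or IL4 in edgeR or DESeq2, against 0.0% and 0.00231% of all tested peaks in edgeR, and 4 and 5 had an unadjusted p under 0.05.

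Among those 82 peaks, KO against WT calls were few and all at Smad3. Under vehicle 2 were higher (0.616% of all tested peaks were called), under Dex 1 was higher and 1 lower (0.953%), and under IL4 1 was higher and 3 lower (0.841%). Under scaling by total counts the Dex calls were 2 higher and 0 lower, and with the level-following offsets the IL4 calls were 2 higher and 3 lower. Peaks of other genes or of no gene within 1 Mb of the Smad3 start were called too. Under vehicle, Dex and IL4 these were 3, 5 and 3 of 103 at lower coordinates and 4, 4 and 4 of 108 at higher coordinates. The Smad3 −81.1 kb peak (chr9:63838879-63839288) was higher in KO cells under each treatment. It held 1.46, 1.79, 1.92 and 0.928 CPM in WT vehicle and 4.48, 3.62, 4.32 and 4.77 in KO vehicle, then 0.915, 1.85, 0.985 and 0.980 against 3.38, 3.85, 4.48 and 5.27 with Dex. With IL4 it held 0.661, 0.468, 0.102 and 0.931 CPM in WT and 1.82, 3.02, 1.77 and 2.66 in KO cells. In all 3 treatments every KO library was above every WT library, with log2 differences of 1.48 ± 0.23, 2.02 ± 0.22 and 2.10 ± 0.30 (edgeR, adjusted p = 3.1e-06, 3.5e-11 and 2.1e-07).

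The 3 peaks whose level ran most closely with Smad3 −81.1 kb over the 24 libraries lie on the X chromosome, 2 assigned to Tmsb4x (r = 0.931 and 0.910) and 1 to Msl3 (0.901). The 47 tested peaks of the Y chromosome summed to 193 to 254 CPM in WT and 340.2 to 512 in KO libraries. What part such differences between the genotypes have in the Smad3 values was not tested.

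The Smad3 −104.7 kb peak went the other way, and mainly with IL4. It held 3.07, 3.24, 3.95 and 2.78 CPM in WT vehicle and 5.21, 6.15, 5.81 and 7.26 in WT IL4, against 3.11, 2.20, 2.49 and 2.57 in KO vehicle and 2.69, 2.19, 3.36 and 2.66 in KO IL4. The WT IL4 libraries were above all 3 other groups, and KO IL4 overlapped KO vehicle. The KO against WT difference was −1.17 ± 0.16 under IL4 (edgeR, adjusted p = 8.0e-08) and −0.70 ± 0.18 under Dex (adjusted p = 0.033). The Dex call was lost in 9 alternatives: total counts, only the compared groups in the fit, DESeq2 (0.136), and without WT Dex replicate 1 or 4 or any 1 of the 4 KO Dex libraries (edgeR, adjusted p = 0.0509 to 0.167). IL4 changed it by 0.91 ± 0.16 in WT and 0.09 ± 0.20 in KO cells, and the difference of −0.82 ± 0.26 between these effects was not called. Under IL4 the Smad3 peaks at +37.1 kb (−0.99 ± 0.20) and +13.9 kb (−0.52 ± 0.11) were also lower in KO cells. The +19.8 kb peak was higher under vehicle (0.37 ± 0.08, edgeR adjusted p = 0.0078), a call lost without WT vehicle replicate 3, WT vehicle replicate 4 or KO vehicle replicate 4.

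At Tgfbr2, where the genotype values are a description, several peaks inside the gene differed between KO and WT by more than the libraries of a group did. The +18.5 kb peak (chr9:116156573-116157166) held 2.77, 2.79, 3.42 and 2.78 CPM in WT vehicle and 17.0, 20.9, 17.0 and 17.9 in KO vehicle. With Dex the values were 1.97, 1.66, 1.89 and 2.05 in WT and 15.5, 18.5, 18.5 and 18.9 in KO cells, and with IL4 2.81, 1.81, 2.14 and 2.61 against 14.2, 17.3, 15.1 and 17.1. KO libraries were thus above WT libraries throughout, with log2 differences of 2.65, 3.20 and 2.79. Like it, the +63.6 kb peak (chr9:116111496-116112108) stood at 1.23, 1.34, 0.961 and 2.37 CPM in WT vehicle and 8.20, 6.10, 4.58 and 6.32 in KO vehicle (log2 differences of 2.10, 2.19 and 2.10), and the +24.0 kb peak differed by 2.26, 2.65 and 2.11. The +35.6 kb peak was lower in KO cells, by −1.22, −1.08 and −1.79. The Tgfbr2 promoter itself differed by 0.27, 0.16 and 0.30.

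Of the 45 tested Tgfbr2 peaks, 8, 9 and 7 were past a log2 difference of 1 under vehicle, Dex and IL4 (17.8%, 20.0% and 15.6%), against 0.977%, 0.911% and 0.99% of all tested peaks. The median difference was 0.37, 0.32 and 0.22. The 4 Tgfbr2 peaks past 1 with the same sign under all 3 treatments are 8.89% of the 45, against 0.301% of all tested peaks and 1.61% of the 7090 tested on chromosome 9 (114 peaks). Peaks of other genes or of no gene near Tgfbr2 differed too. Within 1 Mb on the side of lower coordinates, 10, 11 and 13 of 75 were past 1, and on the side of higher coordinates 1, 3 and 2 of 19. Smad3, on the same chromosome, had 1, 1 and 2 of 23.

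Ldlrad4 differed less between the genotypes. None of its 28 tested peaks was past a log2 difference of 1 under any treatment, and the medians were 0.03, 0.10 and −0.10. Averaged in size over the 3 treatments, its largest differences were at low peaks, at −43.9 kb (−0.82, −0.75 and 0.58), −84.9 kb (0.52, 0.67 and −0.40) and +96.0 kb (−0.26, −0.41 and −0.72). Without WT Dex replicate 4 the Dex value at −84.9 kb was 0.44. The next was a more open peak at +126.1 kb (chr18:68058969-68059785), with 9.68, 12.1, 11.5 and 11.9 CPM in WT vehicle and 18.03, 14.97, 14.8 and 13.01 in KO vehicle. With IL4 the order turned, at 16.9, 20.4, 19.8 and 15.9 in WT and 11.6, 16.02, 15.1 and 12.4 in KO cells, where the highest KO library lay just above the lowest WT library. With Dex it held 10.9, 12.4, 11.6 and 12.0 in WT and 14.3, 15.8, 13.5 and 13.9 in KO cells, so that KO lay above WT with vehicle and Dex. The differences between KO and WT were 0.43, 0.30 and −0.41 on the log2 scale. Between IL4 and vehicle the +126.1 kb peak differed by 0.71 ± 0.10 in WT and −0.13 ± 0.10 in KO cells. The peak was picked for its difference between the genotypes, so these effects were not tested against each other.

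**Figure D5:**
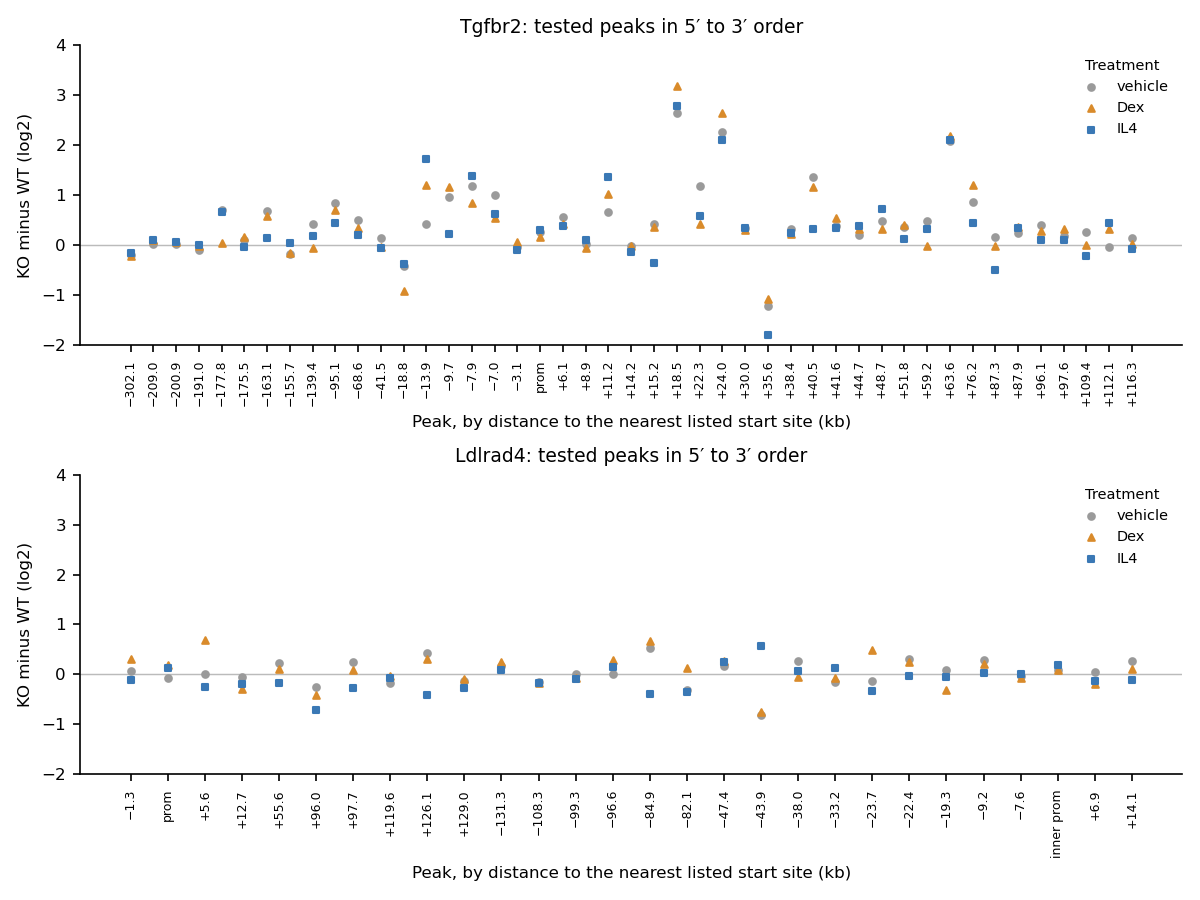
KO minus WT (log2) at each tested peak of Tgfbr2 (45, top) and Ldlrad4 (28, bottom), in 5′ to 3′ order along the gene with equal spacing, under vehicle (circles), Dex (triangles) and IL4 (squares). The axis labels give the distance to the nearest listed start in kb. At Tgfbr2 the +18.5, +24.0 and +63.6 kb peaks lie above 2 under all 3 treatments, and no Ldlrad4 point passes 1 in either direction.

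Of 68 other gene symbols of the pathway, with Ccn2 and Ctgf both listed for the same gene, 63 had a tested peak, with 720 tested peaks in all. In WT cells Dex raised 78 and lowered 70 of these (20.6%, against 16.6% of all tested peaks), and IL4 raised 168 and lowered 118 (39.7%, against 35.4%). Of all tested peaks IL4 raised 19.3% and lowered 16.1%. By role, IL4 raised 24 and lowered 4 of 70 peaks of the ligands, 41 and 23 of 161 of the genes that process or activate them, and 22 and 17 of 111 of other receptors. The ligand rises lay at 4 and the falls at 3 of the 9 ligand genes with a tested peak. IL4 raised 7 and lowered 9 of 46 peaks of a list of other SMADs, Zfyve9 and Zfyve16. Of its 7 genes, 4 had a tested peak. Of the 152 peaks of inhibitors IL4 raised 40 and lowered 24, and of the 180 of targets 34 and 41. Among ligands, a peak assigned to Inhba, the activin A subunit, but 701.3 kb from its start, rose from 5.39 ± 1.13 to 17.7 ± 0.87 CPM (SD, n = 4) with IL4, and a different Inhba peak, 445.6 kb away, rose with Dex from 2.10 ± 0.39 to 5.26 ± 1.20. A peak 52.2 kb from the start of Furin, a protease that cleaves the TGF beta precursor, rose with IL4 from 10.4 ± 1.06 to 29.7 ± 2.06 CPM, and one 31.4 kb from that of Ltbp1, which holds latent TGF beta in the matrix, rose with Dex from 15.6 ± 1.31 to 26.4 ± 1.87.

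The other receptors and inhibitors gave falls as well as rises. A peak 57.6 kb from the start of Bmpr1b, a BMP receptor, fell with Dex from 8.39 ± 0.16 to 2.93 ± 0.46 CPM (SD, n = 4), and one 75.5 kb from that of Acvr1, an activin and BMP receptor, rose with IL4 from 1.71 ± 0.38 to 7.72 ± 0.90. A peak 38.2 kb from Smad5, a BMP-responsive SMAD, fell with Dex from 3.46 ± 0.79 to 1.17 ± 0.39 CPM, and one 34.8 kb from Smad4, the common partner of the SMADs, rose with IL4 from 1.62 ± 0.28 to 7.85 ± 0.67. A peak assigned to Bambi, a decoy receptor, but 321.6 kb away, fell with Dex from 2.63 ± 1.01 to 0.782 ± 0.14 CPM, and one 3.8 kb from the start of Smurf1, a ubiquitin ligase that works with Smad7, rose with IL4 from 0.254 ± 0.17 to 7.20 ± 1.28. Among the targets, a peak 13.2 kb from the start of Cx3cr1 fell with Dex from 23.1 ± 3.22 to 9.45 ± 0.28 CPM. One 26.3 kb from that of Runx1 rose with IL4 from 2.99 ± 0.87 to 22.7 ± 1.88 CPM. Each of these peaks was called and had the smallest adjusted p of its role in that comparison.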

How the data were processed

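The authors deposited a table of whole-number read counts per peak and library, without normalisation, and a table of log2 fold changes with p-values, the nearest gene and the distance to its TSS; per the submitters' processing notes the build is mm10 and fastp, Bowtie2, SAMtools, MACS2, featureCounts and edgeR were used, in unstated roles. The score column, the F statistic of the authors' comparisons per the file headers, was not used. The deposited log2 fold changes served only as a check of scale, with a slope of 1.00 against those computed here. The tests here used edgeR 4.0.16 in R 4.3.3: filterByExpr, TMM factors (0.935 to 1.07), and 1 robust quasi-likelihood model with a mean per group over the 24 libraries. The SE is the log2 change divided by the square root of F. Loess offsets, total counts, DESeq2 1.42.0, other filters, replicate blocks and leaving out each library were alternatives. The test was tried on simulated data. Named peaks are the promoters, for Dex and IL4 in WT the smallest p of each gene and the 5 largest called changes each way, and the largest KO against WT differences. The genes, members and lists were chosen with earlier results of these data known. Other peaks named in passing were chosen after their values were seen. Replicate numbers come from the titles.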

Additional observations from a re-analysis of the deposited data

Results flagged for a closer look

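In 17 of 234 groups of 4 libraries at the named peaks, 1 library stood apart from the other 3 by Dixon's criterion at 95%; chance flags about 1 in 20 groups. At the Tgfbr1 promoter these were WT IL4 replicate 3 (69.6 CPM), KO vehicle replicate 4 (84.7) and KO Dex replicate 2 (79.5). At Tgfbr1 −9.6 kb it was WT IL4 replicate 1 (2.48), and at the Tgfbr2 promoter WT IL4 replicate 1 (26.1). At Tgfbr2 +24.0 kb it was KO vehicle replicate 1 (3.11), and at Tgfbr2 +18.5 kb WT vehicle replicate 3 (3.42) and KO Dex replicate 1 (15.5). At Ldlrad4 +12.7 kb it was WT IL4 replicate 3 (14.9), and at Smad2 −25.7 kb KO Dex replicate 4 (1.24) and KO IL4 replicate 2 (3.70). The Smad3 peaks had WT Dex replicate 1 at +51.6 kb (51.3), WT IL4 replicate 2 at +17.5 kb (4.51), KO IL4 replicate 3 at +13.9 kb (7.17) and WT Dex replicate 2 at −81.1 kb (1.85). At Skil they were WT Dex replicate 1 at −4.9 kb (9.15) and KO vehicle replicate 4 at +6.0 kb (6.78).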

How the results depend on the processing

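Of the recomputed counts of calls, 190 stayed within 1.5 times the reported count and 24 did not, beside 182 and 10 when single libraries were left out. Restricting the members to peaks within 10 kb of a TSS left 2 higher and 3 lower with Dex in WT, 4 and 14 with IL4 in WT, 7 and 12 for IL4 against Dex, 0 and 1 with Dex in KO, 3 and 13 with IL4 in KO, and for KO against WT 0 higher under vehicle, 0 and 0 under Dex and 0 and 0 under IL4, a result of fewer peaks. With only peaks of the authors' deposited table, 1 was higher in KO under vehicle. For KO against WT under Dex, 2 were higher with total counts or loess offsets and 0 lower with total counts, with only the compared groups fitted or with DESeq2. Under IL4, 2 were higher with loess offsets or with only the compared groups; the cause was not tested. With loess offsets the Smad2 promoter turned to 0.092 for IL4 in WT and 0.103 for IL4 against Dex. Leaving out 1 library gave 6 to 10 higher and 7 to 13 lower with Dex in WT, 27 to 36 and 34 to 37 with IL4 in WT, 38 to 46 and 32 to 38 for IL4 against Dex, 4 to 8 and 8 to 10 with Dex in KO, and 20 to 24 and 35 to 40 with IL4 in KO. For KO against WT it gave 1 to 2 and 0 under vehicle, 1 to 2 and 0 to 1 under Dex, and 1 to 2 and 3 to 3 under IL4. Same-numbered libraries did not all correlate above 0.1, and the reported tests left the numbers unpaired, but this cut cannot show that the samples are unpaired. A replicate block gave 7 higher and 10 lower with Dex in KO. With numbers kept within genotype, Dex gave 11 and 13 in KO and 11 and 15 in WT cells. IL4 then gave 35 and 37 in WT and 26 and 40 in KO cells. The reported counts were 6 and 10 with Dex in KO and 8 and 13 with Dex in WT cells. With IL4 they were 35 and 37 in WT and 22 and 39 in KO cells. Calls over all tested peaks rose too. With numbers kept within genotype, Dex in KO went from 9071 higher and 8623 lower of 130103 to 12458 and 11069. Dex in WT went from 11137 and 10518 to 14469 and 12831. Same-numbered libraries correlated more than other numbers did in 12 of 12 treatment pairs in WT, 7 of 8 in KO and 0 of 12 between genotypes. This is a hint from the data, not the design. Some treatment changes not called in the reported tests, such as Dex at the Tgfbr2 promoter in KO cells, were called with a block. Low peaks limit the precision: at a median of 33 counts per library, small changes may go uncalled.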
